A study of Danio rerio with 6 samples.

Results

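Crim1 is a transmembrane protein with cysteine-rich repeats that is known in lens cells, where it has been linked to integrin beta 1 and to the adhesion of epithelial cells. Integrins are receptors made of an alpha and a beta subunit. They bind the extracellular matrix or other cells on the outside of the membrane. On the inside many of them, though not all, are joined to actin through focal adhesions, which are assemblies of adaptor proteins and kinases. The genes described here are *crim1*, which was the gene edited in the mutant line, *lims1*, which encodes the focal adhesion adaptor PINCH1, *itgb8*, which encodes an integrin beta subunit, and *itgae.1*, which is named for the integrin alpha E subunit. They were chosen by gene symbol from a table that the authors had cut on their own comparison of *crim1*-/- against control. The paper's methods give limits on adjusted p, fold change and FPKM, whereas its results name adjusted p alone. The presence of the chosen genes in the table is what selected them and is no finding. These are 4 of the 223 genes in the table.

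RNA was taken from dissected whole eyes of *crim1*-/- zebrafish larvae and of wildtype controls at 72 hours post fertilization (hpf). The paper describes the eyes as pooled, so a library does not stand for a single larva. The labels list 3 *crim1*-/- libraries and 3 wildtype libraries. The series description gives a smaller number of replicates, and the titles call the mutants a knockdown although their genotype is a germline deletion. The *crim1*-/- larvae came from in-crosses of fish homozygous for a small frameshift deletion in *crim1*, derived from a single edited founder and bred from fish that appeared normal. Controls were of EKW or NBT:DsRed origin, and NBT:DsRed is a neuronal reporter line. Genotype and parentage therefore differ together and cannot be told apart.

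The *crim1* gene was edited with CRISPR/Cas9 at a designed site ahead of the coding sequence of the von Willebrand factor type C domains. The site is shown because it marks the gene that separates the groups. It is given 5′ to 3′ as the study lists it, without a stated strand.

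crim1 target site: gggctttgagccgt

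The site as listed has 14 bases, of which 9 are G or C. No part is in capitals, because neither the PAM nor the deleted bases were located relative to it here.

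One measurement per gene was used, the authors' mean normalized count, which is the mean over all libraries after division by a size factor for sequencing depth. It pools the *crim1*-/- and the wildtype libraries, so it shows how many reads lay behind each gene and does not show which genotype was higher. It has no SD and no number of replicates, and the depth of single libraries is unknown here. Counts were not divided by transcript length, so a higher count does not mean that a gene was expressed more than another gene. The table's fold changes and p-values were not used, and no comparison of *crim1*-/- with wildtype eyes was made.

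The edited gene, *crim1* (ENSDARG00000029668), had a mean of 372 normalized counts over the *crim1*-/- and wildtype libraries together. It stood at rank 40 from the highest of the 223 listed genes, with 82.4% of the other listed genes below it. The neighbours in that order were *zbtb49*, with 380 normalized counts, and *atp1a1a.3*, a subunit of the sodium pump, with 363. Because the mutant libraries are part of the mean, the value does not check the genotype labels.

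The focal adhesion adaptor *lims1* (ENSDARG00000026985) had the largest number of reads among the 4 genes. The protein of its human counterpart forms a complex with integrin-linked kinase and parvin at the cytoplasmic side of integrins. The authors' mean was 872 normalized counts, which is 7.83 times the median of the listed genes. Its rank was 19, between *her4.3*, a Notch target of the Hes family, with 895 normalized counts, and *pnkd*, with 855. More reads lay behind this mean than behind the means of both integrin genes. The counting error and the spread between libraries were not analysed here.

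Both integrin subunit genes lay below the median of the listed genes, which was 111 normalized counts. The subunit *itgb8* (ENSDARG00000028222) had a mean of 89.6 normalized counts and stood at rank 125, with 44.1% of the other listed genes below it. Integrin beta 8 pairs with integrin alpha V in mammals and binds latent TGF-beta. In the order of counts *itgb8* lay between *ambp*, a plasma protein gene, with 91.5 normalized counts, and the epithelial calcium channel gene *trpv6*, with 88.9.

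The gene *itgae.1* (ENSDARG00000098012) had the fewest reads of the 4. Its mean was 45.6 normalized counts, which is 0.409 times the median of the listed genes, and its rank was 175. In mammals integrin alpha E pairs with integrin beta 7 on lymphocytes in epithelia and binds E-cadherin. The genes next to it in the order of counts have clone-based names, BX927244.1 with 47.4 normalized counts and AL772382.1 with 44.3. A similarly named gene, *itgae.2*, is 2 places away among the protein-coding genes of the RefSeq annotation of assembly GRCz12tu. If both are copies of similar sequence they may share short reads, which would make the value of *itgae.1* uncertain. Their sequences were not compared here.

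**Figure D1:**
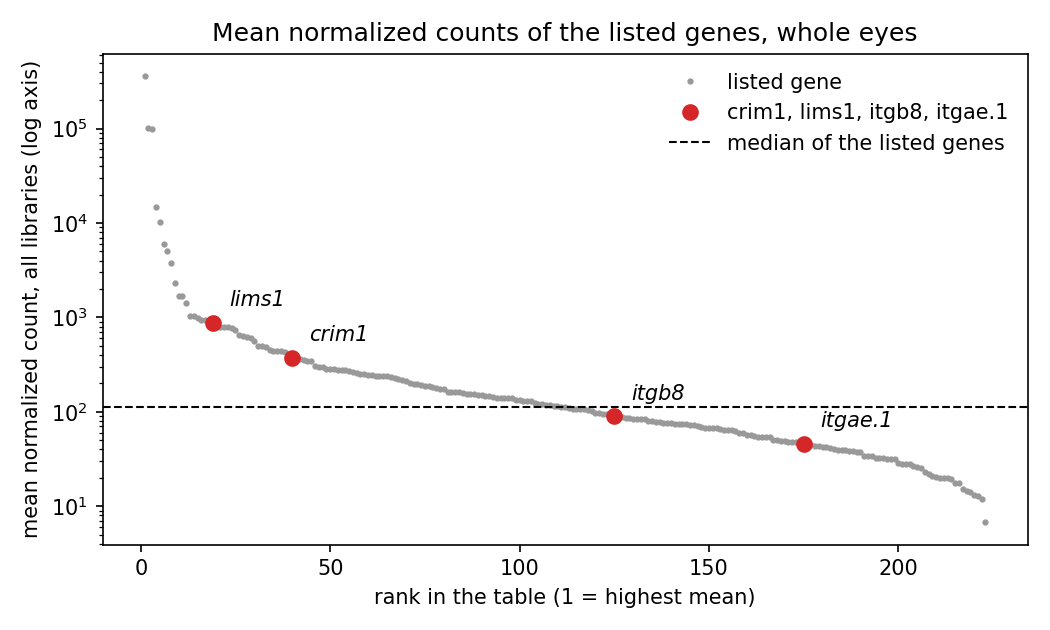
Mean normalized count over all libraries (log axis) of each of the 223 listed genes against its rank, where 1 is the highest mean; each grey point is a gene, red points are *crim1*, *lims1*, *itgb8* and *itgae.1*, and the dashed line is the median of the listed genes. *lims1* (872) and *crim1* (372) lie above the median of 111, and *itgb8* (89.6) and *itgae.1* (45.6) lie below it.

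The plot of mean counts by rank shows the whole range of the table. The lens crystallin gene *crygm2d17* had the highest mean, 357210 normalized counts, so a defining lens gene was present among the reads of these eyes. The olfactory receptor gene *or128-1* had the lowest mean, 6.76. The middle of the distribution, between its quartiles, ran from 49.9 to 258 normalized counts. It holds *itgb8*, whereas *crim1* and *lims1* lie above it and *itgae.1* lies below it.

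Other genes of integrin adhesion were sought in the table by symbol. The number of genes that the authors tested was not used here. The share of all tested genes that has a row was therefore not worked out, and none of the following counts can be read as few or many. The genes found with a row are the ones already chosen for this report from the same table, so finding them is no result. Among 24 integrin alpha subunit symbols, *itgae.1* was the single gene with a row. Among 13 integrin beta subunit symbols, *itgb8* was the single gene with a row. Among 36 focal adhesion adaptors and kinases, which include integrin-linked kinase, parvins, talins, vinculins, paxillins, kindlins and focal adhesion kinases, *lims1* alone had a row. Of 22 symbols of matrix ligands and other partners of integrins, such as fibronectins, laminins and type IV collagens, 0 had a row. Of the 95 symbols in the 4 lists, 86 matched the RefSeq annotation. Because 104 of the 223 listed genes had a clone-based name or no symbol, an adhesion gene among those could be missed. The lists do not hold every gene tied to integrins. The gene *clic4* has a row and was in none of them. The paper proposes that reduced *clic4* expression could disturb cell interactions through integrins. Its test of binding between Crim1 and Clic4 gave no definite interaction. The 4 integrin beta 1 genes *itgb1a*, *itgb1b*, *itgb1b.1* and *itgb1b.2* were among the symbols without a row. In a separate assay, quantitative PCR after reverse transcription, the paper measured *itgb1* in dissected eyes at the same age. It reports significantly lower *itgb1* in *crim1*-/- larvae than in controls. That result was not tested here. A gene without a row is not thereby shown to be unchanged, since the table holds only what passed the authors' limits, and the levels of those genes were not analysed here.

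The 4 genes do not lie together in the genome. In the RefSeq annotation each is on a different chromosome. None of them had another listed gene that could be placed within 10 protein-coding genes on either side. The nearest listed gene to *itgb8* was *ggcta*, an enzyme of glutathione turnover, 13 protein-coding genes away, and the nearest to *itgae.1* was the clone-named zgc:113279, 14 away. For *crim1* the nearest was si:dkey-21a6.5 at 67 protein-coding genes, and for *lims1* it was *ctbs*, a chitobiase gene, at 284. Only 143 of the 223 listed symbols matched a protein-coding gene of that annotation, so listed genes nearer than these may have been missed.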

How the data were processed

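Libraries were prepared from whole eyes of *crim1*-/- and wildtype larvae with an amplifying kit and sequenced as single-end reads. According to the paper and the submitters' processing notes, the authors checked reads with FastQC, trimmed them with BBDuk, used STAR for alignment to GRCz11 and RSEM for quantification, and ran DESeq2. Tool versions were not given in the sources read. The deposited table has 223 genes. Its mean normalized count is a signal that the authors averaged over all libraries after scaling by size factors. Its 4 other value columns hold the authors' fold change, standard error, p-value and adjusted p-value for *crim1*-/- against control, and were not used.

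Genes were matched by symbol. Ranks, the percentage of other genes below and ratios to the median were computed from the mean normalized count, and the ranking was tested on simulated data. Named are the 4 genes, other listed genes of 4 adhesion lists, the genes next to each in rank, the highest and lowest genes, and the nearest listed genes in gene order, which were added after the values were seen. *clic4* is also named, because of the paper's proposal about integrins. The genes and lists were chosen with earlier results of these data known. Gene IDs of 4 of 4 genes matched the table of gene names. Of 95 list symbols, 86 matched the RefSeq annotation of GRCz12tu, which was used for names and gene order only. The planned count test needed counts of single libraries, which the table does not hold. Levels per coding length needed coding lengths, which were not used here. Python 3.11.15, NumPy 2.4.6, pandas 2.3.3 and Matplotlib 3.10.9 were used.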

Additional observations from a re-analysis of the deposited data

How the results depend on the processing

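The labels give both genotypes the same replicate numbers, but nothing in them ties libraries of equal number into pairs. No paired analysis was possible in any case, because the table holds no values of single libraries. For the same reason the count test, its other normalization, the unfiltered fit and the fits without each replicate were not run. Levels per coding length were not made either. Leaving out genes with clone-based names or without a symbol kept 119 genes, of which the percentage with a lower mean than the gene was 75.4% for *crim1*, 89.0% for *lims1*, 33.1% for *itgb8* and 13.6% for *itgae.1*, against 82.4%, 91.9%, 44.1% and 21.6% in the whole table. Among genes with a mean of 50 or more normalized counts, an alternative chosen after seeing the data, it was 76.4% for *crim1*, 89.1% for *lims1* and 24.8% for *itgb8*, and *itgae.1* fell out. This limit removes genes with low means by construction. Matching list symbols also through synonyms left the count of each list the same. A pooled mean limits what can be said to the amount of reads behind a gene.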
